A study of Mus musculus with 16 samples.

Results

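The mitochondrial respiratory chain genes described here are the nuclear genes of complexes I to V of oxidative phosphorylation. They were taken as every array probe, controls aside, whose gene name begins with Nduf followed by a, b, c, s or v, with Sdha to Sdhd, with Uqcr, with Cox4 to Cox8 or with Atp5. The rule found 115 probes for 79 of the 27703 gene names on the array. Complex I has 34 of these genes, complex II 4, complex III 6, complex IV 17 and complex V 15. The remaining 3 are no subunits of a complex in the grouping used here: Ndufaf1, an assembly factor of complex I, Cox7a2l, which helps join complexes III and IV, and Dmac2l, a coupling factor of the ATP synthase. Values were used from 78 of the 79 genes. The exception was Cox8c, an isoform known from testis, whose probe was above background in Cy5 on 0 of the 16 arrays. Of the 78, 77 were above background on all 16 arrays and Cox4i2, a lung-enriched isoform, on 11.

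The study used 16 female mice of A/J, an inbred line that readily develops lung tumours, 4 in each of 4 groups, and measured each lung on its own 2-colour Agilent array. All mice ate an AIN-76 diet holding 0.35 ppm selenium. Untreated mice received nothing further. NNK mice had 1 intraperitoneal injection of the tobacco nitrosamine NNK, as 0.2 mL of saline at 10 uM, and were killed 13 days later. SECY mice ate selenocystine, a selenium-containing amino acid, at 15 ppm for 10 days. NNK+SECY mice received both, with the diet begun 3 days after the injection. On every array the lung RNA of 1 mouse carried Cy5 and a pool of RNA from the 4 untreated mice carried Cy3, so each value is log2 of mouse over pool and the untreated mice are compared with a pool that contains them. The RNA is of whole lung, so that fewer cells of a type and less RNA per cell cannot be told apart.

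In the inner mitochondrial membrane, complexes I and II pass electrons from NADH and succinate to ubiquinone, complex III passes them on to cytochrome c, and complex IV, cytochrome c oxidase, hands them to oxygen. The protons that complexes I, III and IV pump out drive complex V, the ATP synthase. Most subunits are nuclear genes that every cell uses, and a few subunits of complex IV have another gene used mainly in heart, skeletal muscle and brown fat, such as Cox6a2, Cox7a1 and Cox8b.

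The arrays' median spot signals lay between 71.2 and 105 in Cy5 and between 67.5 and 93.4 in Cy3, and 66.3% to 79.3% of spots were well above background in Cy5. Slides were numbered 1 to 8 by an identifier in the file headers that 2 files share. Each file holds 1 full grid, so whether those 2 arrays lay on 1 glass slide is not known. Untreated and NNK arrays had slide numbers 1 to 4, where the share above background was at most 72.6%. SECY and NNK+SECY arrays had slide numbers 5 to 8, where every array was above that. All NNK and NNK+SECY arrays were scanned on 1 day and all Untreated and SECY arrays on another, so scan day and NNK cannot be told apart, nor can slide set and diet. The array of SECY 3 had the lowest mean correlation to the other arrays of its group, 0.0389 over all tested genes. Next lowest were Untreated 1 at 0.125 and Untreated 3 at 0.18, and the highest such value was 0.566. Without SECY 3, 0 of the respiratory chain genes were called in the 3 comparisons that hold the SECY group (SECY vs Untreated, NNK+SECY vs SECY and the interaction), as with it.

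None of the respiratory chain genes passed the limma threshold (Benjamini-Hochberg adjusted p of 0.05 over all genes tested) in any comparison. In NNK vs Untreated 0 of 78 tested genes were called, against 0.32% of all genes tested. The count was 0 of 78 in SECY vs Untreated, where 0.278% of all genes were called, and 0 of 78 in NNK+SECY vs Untreated, where 1.6% were. It was 0 of 78 in NNK+SECY vs NNK, where 1.75% of all genes were called, and 0 of 78 in NNK+SECY vs SECY, where 0.00942% were. For the interaction, the NNK difference under selenocystine minus the NNK difference without it, it was 0 of 78 against 0.00471% of all genes. With shares this small, a count of 0 among 78 lies near the background in each comparison.

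Without adjustment, 0 of the 78 had a limma p under 0.05 in NNK vs Untreated, where 5.04% of all genes did. The counts were 4 in SECY vs Untreated against 8.11%, 3 in NNK+SECY vs Untreated against 9.23%, 3 in NNK+SECY vs NNK against 9.9%, 4 in NNK+SECY vs SECY against 6.14% and 0 for the interaction against 4.61%. By a second measure, genes in which the 4 arrays of one group all lay above the 4 of the other, 3 of 76 members with all 8 values did so in NNK vs Untreated, where 3.79% of all genes did. It was 2 of 71 in SECY vs Untreated against 3.96%, 1 of 75 in NNK+SECY vs Untreated against 6.81%, 3 of 73 in NNK+SECY vs NNK against 8.47% and 4 of 71 in NNK+SECY vs SECY against 2.84%. The genes were Cox6a1, Ndufaf1 and Sdhb in the first, Atp5k and Cox8a in the second, Atp5g3 in the third, Cox6a1, Ndufa3 and Ndufa6 in the fourth and Atp5g2, Atp5h, Dmac2l and Ndufb11 in the fifth.

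The typical difference was close to 0, and the intervals set a bound on single genes. The median log2 difference over the 78 tested genes was 0.006 in NNK vs Untreated, 0.00035 in SECY vs Untreated, -0.013 in NNK+SECY vs Untreated, -0.0043 in NNK+SECY vs NNK and -0.012 in NNK+SECY vs SECY, beside 0.0048, -0.0034, 0.00037, -0.0021 and 0.0053 over all genes tested. The 95% interval of the difference lay within 2-fold either way for 78 of 78 genes in each of the 6 comparisons. It lay within 1.5-fold for 78 genes in NNK vs Untreated and in NNK+SECY vs NNK, for 77 in SECY vs Untreated and in NNK+SECY vs Untreated, for 76 in NNK+SECY vs SECY and for 75 in the interaction. The genes outside that bound were Cox8b, Atp5pb, a stalk subunit of the ATP synthase, and Ndufs4, an accessory subunit of complex I. The intervals use a spread shared by all groups. For genes with few measured SECY arrays, such as Atp5a1, Atp5g3 and Atp5pb, they rest mainly on the spread in the other groups. Scaling each array by its median in place of loess moved the median to -0.073 in NNK vs Untreated, -0.060 in SECY vs Untreated and -0.11 in NNK+SECY vs Untreated, again with 0 genes called.

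**Figure D1:**
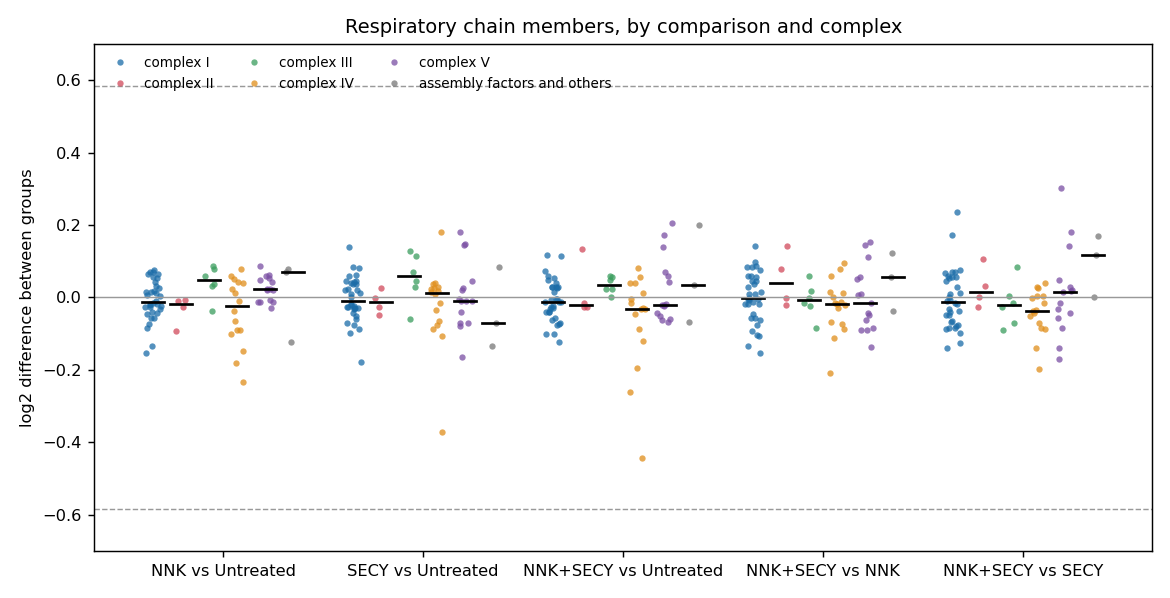
Log2 difference between groups (vertical axis) of each of the 78 tested respiratory chain genes, by comparison and coloured by complex; black bars are the median of a complex and dashed lines mark 1.5-fold. Nearly all points lie close to 0 in every comparison, and the lowest, at -0.44 in NNK+SECY vs Untreated, is Cox8b.

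The 34 genes of complex I, the entry point for electrons from NADH, split almost evenly around 0. In NNK vs Untreated 16 were above 0 with a median of -0.013, in SECY vs Untreated 17 with a median of -0.0089, and in NNK+SECY vs Untreated 13 with a median of -0.012. Ndufs1, the largest subunit and a carrier of iron-sulfur clusters, read 0.14, 0.05, -0.04 and -0.07 in the untreated mice, -0.02, -0.10, -0.07 and 0.03 after NNK, 0.07, 0.06, -0.24 and 0.07 on selenocystine, and 0.10, 0.00, 0.13 and 0.00 after both. All groups overlapped, and the lowest value was that of SECY 3. Ndufv1, which binds NADH, had group means of -0.02 ± 0.05 (SD, n = 4) in Untreated, -0.03 ± 0.09 in NNK, 0.03 ± 0.08 in SECY and 0.01 ± 0.07 in NNK+SECY. Ndufab1, which doubles as the mitochondrial acyl carrier protein, had means of 0.16 ± 0.05, 0.14 ± 0.10, 0.07 ± 0.14 and 0.12 ± 0.07 in the same order. Neither differed between groups by more than the spread of the mice.

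Ndufb8, an accessory subunit, had the smallest p of the respiratory chain genes in NNK vs Untreated, with a log2 difference of -0.15 ± 0.07 (SE) and a limma adjusted p near 1 (0.9995). The smallest p of complex I in SECY vs Untreated was that of Ndufa12, at 0.14 ± 0.06 (limma adjusted p = 0.493), where Cy5 changed by -0.0062 and Cy3, the pool, by -0.15. Ndufa3, another accessory subunit, read 0.24, 0.16, 0.31 and 0.17 in NNK and 0.09, 0.14, 0.04 and 0.07 in NNK+SECY, 2 groups that did not overlap, with a difference of -0.13 ± 0.05 (adjusted p = 0.317).

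Complex II, succinate dehydrogenase, was measured by all 4 of its subunits, Sdha and Sdhb of the catalytic part and the membrane anchors Sdhc and Sdhd. Sdhb read 0.01, 0.05, 0.04 and 0.04 in Untreated and -0.01, -0.10, -0.05 and -0.06 in NNK. These groups did not overlap, and the difference was -0.09 in log2 units with an adjusted p near 1 (0.9995), so it did not hold up in the limma fit. Sdha read -0.11, 0.07, 0.13 and -0.10 in Untreated and 0.06, -0.09, 0.37 and 0.19 in NNK+SECY, which overlap widely around a difference of 0.13. Sdhc and Sdhd differed by at most 0.03 over the 5 pairs of groups compared, in either direction.

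In complex III, the cytochrome bc1 complex, 6 of 6 genes were above 0 in NNK+SECY vs Untreated with a median of 0.035, and 5 of 6 in NNK vs Untreated and in SECY vs Untreated, with none called. Uqcrc1, a core subunit, read -0.13, 0.00, 0.20 and -0.01 in Untreated, 0.12, -0.01, 0.13 and 0.14 in NNK, -0.08, -0.05, 0.51 and -0.03 in SECY and 0.15, 0.09, 0.13 and -0.08 in NNK+SECY. The 1 high value, 0.51, was that of SECY 3. Uqcrc2, the other core subunit, had means of 0.04 ± 0.10, 0.07 ± 0.05, 0.09 ± 0.12 and 0.09 ± 0.13 in Untreated, NNK, SECY and NNK+SECY. Uqcrfs1, the Rieske iron-sulfur protein, had means of 0.13 ± 0.07, 0.09 ± 0.13 (3 arrays), 0.07 ± 0.13 and 0.15 ± 0.15.

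None of the ubiquitous subunits of complex IV passed the test either, and most had groups that overlap. Cox4i1, the regulatory subunit that binds adenine nucleotides, read -0.19, -0.12, -0.05 and 0.03 in Untreated and -0.18, -0.09, -0.20 and -0.35 in NNK+SECY, with a difference of -0.12 between overlapping groups. Cox5a had means of -0.11 ± 0.09, -0.14 ± 0.06, -0.08 ± 0.05 and -0.05 ± 0.09 in Untreated, NNK, SECY and NNK+SECY, and Cox5b, which binds zinc, of 0.09 ± 0.06, 0.08 ± 0.03, 0.10 ± 0.07 and 0.05 ± 0.09. Cox6c ranged from -0.34 to 0.03 in Untreated, while SECY, with 3 measured arrays, held both the lowest value of all mice, -0.63 in mouse 3, and the highest, 0.13 in mouse 4. Cox8a, the ubiquitous form of the smallest subunit, read -0.15, -0.23, -0.15 and -0.27 in Untreated and -0.07, 0.09, -0.13 and 0.03 in SECY. All SECY mice lay above the untreated ones, and the difference of 0.18 ± 0.06 had the smallest p of the respiratory chain genes in that comparison (limma adjusted p = 0.377). Of the isoforms with restricted expression outside muscle, Cox4i2 had differences of -0.04 to 0.03 over the 5 pairs, and Cox6b2, the testis form of subunit 6b, of 0.00 to 0.08.

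Complex V held the respiratory chain genes with the smallest p in NNK+SECY vs Untreated. Atp5g3, 1 of 3 genes that encode the same membrane ring subunit c, read 0.02, 0.01, -0.11 and -0.04 in Untreated, 0.14, -0.03, 0.05 and -0.04 in NNK, 0.08 and -0.09 in the 2 measured SECY mice, and 0.28, 0.13, 0.20 and 0.09 in NNK+SECY. The NNK+SECY mice all lay above the untreated ones, with a difference of 0.21 ± 0.06 (limma adjusted p = 0.155), which was 0.073 with arrays scaled by their median. After scaling per dye, its Cy5 signal was 0.051 higher in NNK+SECY than in Untreated and its Cy3 signal, that of the pool, 0.15 lower. The sister genes Atp5g1 and Atp5g2 did not share this, with differences of -0.05 and -0.06 in the same comparison. In NNK+SECY vs NNK, Atp5g1 had the smallest p of the respiratory chain genes, at -0.14 ± 0.05 (adjusted p = 0.291), and Atp5g3 was at 0.15 ± 0.06 (adjusted p = 0.415).

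Atp5a1, the alpha subunit of the catalytic head, read -0.06, -0.12, -0.02 and -0.10 in Untreated and 0.06, 0.19 and 0.04 in the 3 measured NNK+SECY mice, a difference of 0.17 ± 0.06 (limma adjusted p = 0.252). The gene's other probe was at -0.044 ± 0.066 there, and the mean of both probes gave 0.038. It was flagged as an outlier spot on 3 of the 4 SECY arrays, so SECY has 1 value, 0.07. The partner subunits of the head were closer to 0, with differences in NNK+SECY vs Untreated of 0.07 for Atp5b, the beta subunit, and -0.02 for Atp5c1, the gamma subunit. Atp5k, a small membrane subunit, read -0.15, -0.15, -0.16 and -0.06 in Untreated and -0.02, 0.04, -0.05 and 0.10 in SECY, which do not overlap, with a difference of 0.15 ± 0.08 (adjusted p = 0.672). The stalk subunit Atp5pb was at 0.30 ± 0.14 in NNK+SECY vs SECY (adjusted p = 0.803), where SECY had 2 measured arrays, SECY 3 at -0.59 and SECY 4 at -0.05. Without SECY 3 this difference was 0.032, and over all alternatives it ran up to 0.67. The gene's 3 probes gave 0.30, 0.17 and -0.073 there, the widest disagreement between probes of a respiratory chain gene.

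**Figure D2:**
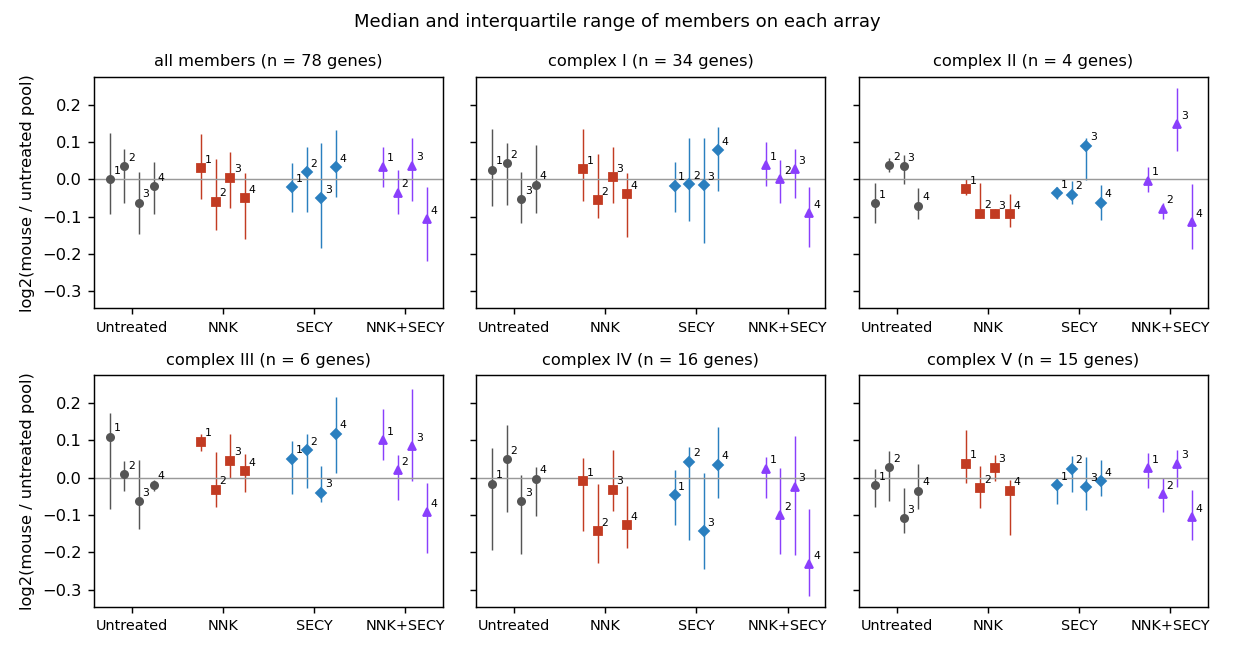
Median log2 of mouse over untreated pool (points) and interquartile range (bars) of the tested respiratory chain genes on each of the 16 arrays, over all of them and by complex; the small digits are mouse numbers. The medians over all genes run from -0.11 for NNK+SECY 4 to 0.037 for NNK+SECY 3, and the groups overlap in every panel.

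The medians over all tested respiratory chain genes on an array were 0.001, 0.036, -0.062 and -0.019 in Untreated, 0.030, -0.060, 0.0041 and -0.050 in NNK, -0.020, 0.019, -0.050 and 0.033 in SECY, and 0.034, -0.035, 0.037 and -0.11 in NNK+SECY. The lowest and the highest were both NNK+SECY mice. Between the 2 arrays that share a slide identifier, the median difference of NNK minus Untreated was 0.017, -0.046, 0.082 and -0.040 on slides 1 to 4. That of NNK+SECY minus SECY was 0.065, -0.036, 0.048 and -0.17 on slides 5 to 8. Each set holds both signs, so the direction did not hold within slides. Within groups the genes scattered about as widely as other genes, with a median SD of 0.098 against 0.095 over all genes tested. The widest were Cox8b at 0.27, Cox7b at 0.26, Ndufs4 at 0.23, Uqcrb at 0.22 and Cox7a1 at 0.21, and the narrowest was Ndufb11 at 0.039.

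The 3 muscle isoforms of complex IV had the 3 lowest differences of the family in NNK+SECY vs Untreated, though none passed. Cox8b, the heart and muscle form of subunit 8, read -0.46, 0.32, 0.08 and 0.02 in Untreated, -0.14, -0.43, -0.09 and -0.32 in NNK, -0.44, -0.55, -0.20 and -0.33 in SECY and 0.05, -0.52, -0.54 and -0.80 in NNK+SECY. Untreated 1 was as low as the treated mice and NNK+SECY 1 as high as the untreated ones, so the groups overlap. The difference was -0.44 ± 0.17 in NNK+SECY vs Untreated (limma adjusted p = 0.337) and -0.37 ± 0.17 in SECY vs Untreated (adjusted p = 0.556). Its lowest adjusted p over all alternatives was 0.0621 in the first and 0.0801 in the second.

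Cox7a1, the muscle form of subunit 7a, read -0.33, 0.11, -0.08 and -0.01 in Untreated, -0.21, -0.58, 0.07 and -0.17 in NNK, -0.14, -0.23, -0.15 and -0.04 in SECY and 0.06, -0.42, -0.45 and -0.53 in NNK+SECY. Cox6a2, the muscle form of subunit 6a, read -0.26, 0.15, 0.01 and 0.02 in Untreated, -0.32, -0.25, -0.07 and -0.16 in NNK, -0.11, -0.30, -0.02 and -0.09 in SECY and 0.06, -0.26, -0.28 and -0.38 in NNK+SECY. In both genes, as in Cox8b, Untreated 1 lay below the other untreated mice and NNK+SECY 1 above the other mice of its group. The differences in NNK+SECY vs Untreated were -0.26 ± 0.13 for Cox7a1 (adjusted p = 0.608) and -0.19 ± 0.10 for Cox6a2 (adjusted p = 0.584). The ubiquitous counterparts Cox8a, Cox7a2 and Cox6a1 were at 0.04, -0.01 and 0.01 there.

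The promoter windows of these isoforms and their counterparts, from 250 bases before to 50 after the RefSeq start on GRCm38.p6, are shown because each pair encodes versions of the same subunit and the 3 muscle isoforms varied together over the mice. Capitals mark GCATGCG on either strand, the core of the motif of the factor NRF1, whose matches on the 2 strands can overlap and then count as 1 site, and CCGGAAG on either strand (CTTCCGG on the strand printed), a motif of ETS factors such as GABP. NRF1 and GABP are known as regulators of respiratory chain genes. The windows lie at chr7:30183921-30184220 on the plus strand for Cox7a1, chr9:79759804-79760103 on the minus strand for Cox7a2, chr7:140900397-140900696 on the minus strand for Cox8b, chr19:7217567-7217866 on the minus strand for Cox8a and chr5:115348909-115349208 on the minus strand for Cox6a1. The window of Cox6a2 is not shown.
Cox7a1: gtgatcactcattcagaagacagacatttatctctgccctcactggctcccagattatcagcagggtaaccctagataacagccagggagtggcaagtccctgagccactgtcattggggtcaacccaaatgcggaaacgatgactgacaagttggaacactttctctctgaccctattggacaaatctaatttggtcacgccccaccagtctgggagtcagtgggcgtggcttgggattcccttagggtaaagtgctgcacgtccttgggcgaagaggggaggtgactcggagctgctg
Cox7a2: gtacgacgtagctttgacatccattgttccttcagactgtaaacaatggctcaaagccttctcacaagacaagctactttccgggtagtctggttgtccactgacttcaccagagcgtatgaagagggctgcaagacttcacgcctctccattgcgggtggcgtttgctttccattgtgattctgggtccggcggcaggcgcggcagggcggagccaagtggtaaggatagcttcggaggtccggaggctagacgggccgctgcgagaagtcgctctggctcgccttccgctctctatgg
Cox8b: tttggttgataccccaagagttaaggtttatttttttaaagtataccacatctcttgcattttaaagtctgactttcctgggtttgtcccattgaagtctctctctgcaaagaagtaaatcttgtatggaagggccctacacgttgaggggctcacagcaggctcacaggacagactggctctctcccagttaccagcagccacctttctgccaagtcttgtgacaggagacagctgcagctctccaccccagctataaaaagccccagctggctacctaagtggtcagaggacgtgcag
Cox8a: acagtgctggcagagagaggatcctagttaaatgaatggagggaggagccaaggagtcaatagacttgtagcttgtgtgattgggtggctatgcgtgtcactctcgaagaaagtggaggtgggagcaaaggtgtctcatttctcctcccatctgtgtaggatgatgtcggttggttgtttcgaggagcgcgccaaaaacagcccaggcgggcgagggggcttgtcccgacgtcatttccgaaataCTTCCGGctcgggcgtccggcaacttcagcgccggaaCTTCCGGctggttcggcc
Cox6a1: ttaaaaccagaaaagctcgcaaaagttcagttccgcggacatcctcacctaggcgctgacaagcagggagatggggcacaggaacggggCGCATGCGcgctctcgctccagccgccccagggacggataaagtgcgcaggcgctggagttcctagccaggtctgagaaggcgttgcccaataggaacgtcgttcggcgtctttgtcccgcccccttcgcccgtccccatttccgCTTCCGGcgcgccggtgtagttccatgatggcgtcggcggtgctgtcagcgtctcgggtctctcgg

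The Cox7a1 and Cox8b windows held neither motif, nor did that of Cox7a2. Cox8a held 2 copies of the ETS motif, beginning 5 bases before and 33 after the start, and Cox6a1 held 1 of each, the NRF1 motif beginning 161 bases and the ETS motif 16 bases before the start. The GC content was 53% for Cox7a1 and 48.3% for Cox8b, against 56.7% for Cox7a2, 56% for Cox8a and 63% for Cox6a1. RefSeq windows matched 66 of the 79 genes by symbol, 71 windows in all. Of these, 22.5% held the ETS motif and 15.5% the NRF1 motif, where 8.86% and 3.58% of all 32851 windows of the same length did. Their median GC content was also higher, 57.3% against 52.7% in all windows, and its part was not tested. The shares differed by complex, and in the 32 windows of complex I each motif was held by 9.38%. Among the 66 genes, those with both were Sdhb, Uqcr11, Cox6a1, Atp5j, Atp5k and Atp5l, and a match is a description of the letters, not of binding.

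**Figure D3:**
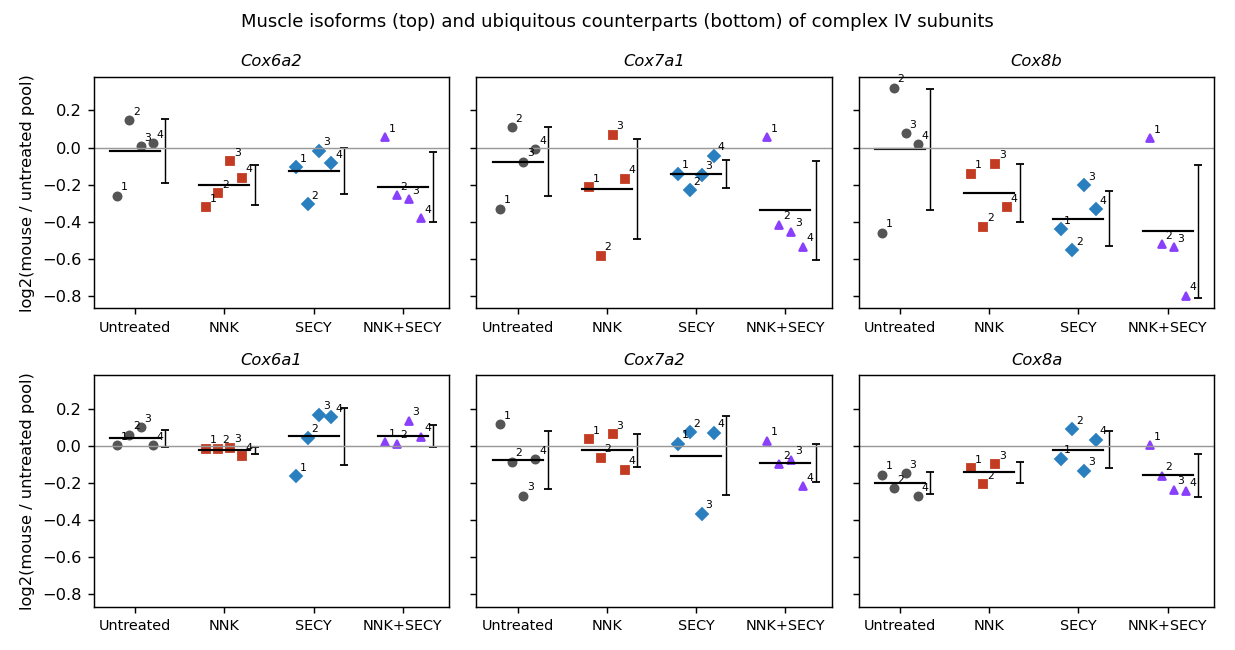
Log2 of mouse over untreated pool for the muscle isoforms Cox6a2, Cox7a1 and Cox8b (top) and their ubiquitous counterparts Cox6a1, Cox7a2 and Cox8a (bottom) in each mouse; digits are mouse numbers, horizontal bars group means and vertical bars 1 SD (n = 4, n = 3 for Cox8a in NNK). In the top row Untreated 1 is the lowest untreated mouse and NNK+SECY 1 the highest of its group.

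Over the 16 arrays Cox6a2 and Cox7a1 correlated with Pearson r = 0.84 and Spearman rho = 0.84, Cox6a2 and Cox8b with 0.86 and 0.84, and Cox7a1 and Cox8b with 0.82 and 0.81. Permutation p-values of r, adjusted over 4 relations, were 6.7e-05, 6.7e-05 and 0.00014, and those of rho were 0.00013, 0.00013 and 0.00025. Without the 2 arrays farthest from the median r was 0.77, 0.77 and 0.82. It was 0.78, 0.86 and 0.83 on slides 1 to 4 and 0.89, 0.95 and 0.87 on slides 5 to 8. All values of an array share its pool, dye and normalization, and over all 3003 pairs of tested respiratory chain genes the median r was 0.18, with the 10th and the 90th percentile at -0.31 and 0.64.

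Over the arrays, markers of heart muscle and fat moved with these isoforms, but not in every comparison of groups. The heart list (14 markers, 13 above background on all 16 arrays and Tbx20 on 13) had array medians from -0.20 to 0.23 in Untreated, -0.16 to 0.23 in NNK, -0.29 to -0.043 in SECY and -0.37 to 0.15 in NNK+SECY, and 1 of its 14 genes was above 0 in NNK+SECY vs Untreated (median -0.15, 0 called). In NNK vs Untreated, however, 9 of the 14 were above 0 (median 0.022), while Cox8b, Cox7a1 and Cox6a2 were at -0.23, -0.15 and -0.18. The heart-specific myosin Myh6 was itself above background on all 16 arrays. The fat list (12 markers, 11 above background on all 16 arrays and Lep on 12) had array medians from -0.36 to 0.16, -0.37 to 0.038, -0.27 to 0.34 and -0.50 to 0.29 in the same order. The skeletal muscle list (14 markers, of which 11 were tested and Pvalb was above background on 0 arrays) went from -0.25 to 0.27, -0.18 to -0.022, -0.31 to 0.14 and -0.37 to 0.77. Of its 11 tested genes, 10 were above 0 in NNK+SECY vs Untreated (median 0.32, 0 called), opposite to the isoforms. Of the 12 fat markers, 1 was above 0 in NNK vs Untreated (median -0.13) and 4 in NNK+SECY vs Untreated (median -0.042). In SECY vs Untreated 7 were above 0 (median 0.025), and in NNK+SECY vs NNK 9 were (median 0.053). Cox8b, Cox7a1 and Cox6a2 were all below 0 in the last 2 of these comparisons. The fat list mixes markers of white and brown fat. Its brown fat marker Ucp1, not called, was at -0.70 in NNK vs Untreated, -0.50 in SECY vs Untreated and -0.99 in NNK+SECY vs Untreated. It was at -0.29 in NNK+SECY vs NNK and at -0.49 in NNK+SECY vs SECY. Cidea, not called either, was at -0.19, -0.11, -0.13, 0.053 and -0.020 in the same order.

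Cox6a2, Cox7a1 and Cox8b correlated with the heart median at r = 0.67, 0.75 and 0.72 and rho = 0.63, 0.70 and 0.64 (permutation p adjusted over 18 relations 0.0154, 0.0095 and 0.0104 for r, and 0.0313 for each rho). With the fat median r was 0.80, 0.64 and 0.69 and rho 0.83, 0.64 and 0.67 (adjusted permutation p 0.0049, 0.0251 and 0.0132 for r and 0.0023, 0.0313 and 0.0313 for rho). Without the 2 arrays farthest from the median r was 0.59, 0.64 and 0.61 for heart and 0.80, 0.67 and 0.76 for fat. On slides 1 to 4 it was 0.70, 0.69 and 0.61 for heart and 0.84, 0.65 and 0.78 for fat, and on slides 5 to 8 it was 0.62, 0.80 and 0.70 for heart and 0.84, 0.69 and 0.88 for fat. With the skeletal muscle median r was 0.32, 0.16 and 0.30, none past the threshold, and without NNK+SECY 1 and 3 it was 0.66, 0.51 and 0.67. For the counterparts Cox6a1, Cox7a2 and Cox8a, r ran from -0.33 to 0.39 over the 3 lists with adjusted permutation p from 0.361 for r and from 0.239 for rho. Within slide sets some of these were as high as for the isoforms. On slides 5 to 8, r with the heart median was 0.74 for Cox7a2 and 0.73 for Cox8a, and on slides 1 to 4, r with the fat median was 0.78 for Cox6a1. On the scan day of the NNK and NNK+SECY arrays, r of the isoforms with heart was 0.91, 0.85 and 0.86. With fat it was 0.88, 0.69 and 0.72 there. On the other scan day r was 0.54, 0.74 and 0.61 for heart and 0.69, 0.46 and 0.63 for fat. Cox8a with fat was at 0.88 on the first of these days and at -0.36 on the other. The part of other tissues in the isoforms' differences between groups was not tested.

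**Figure D4:**
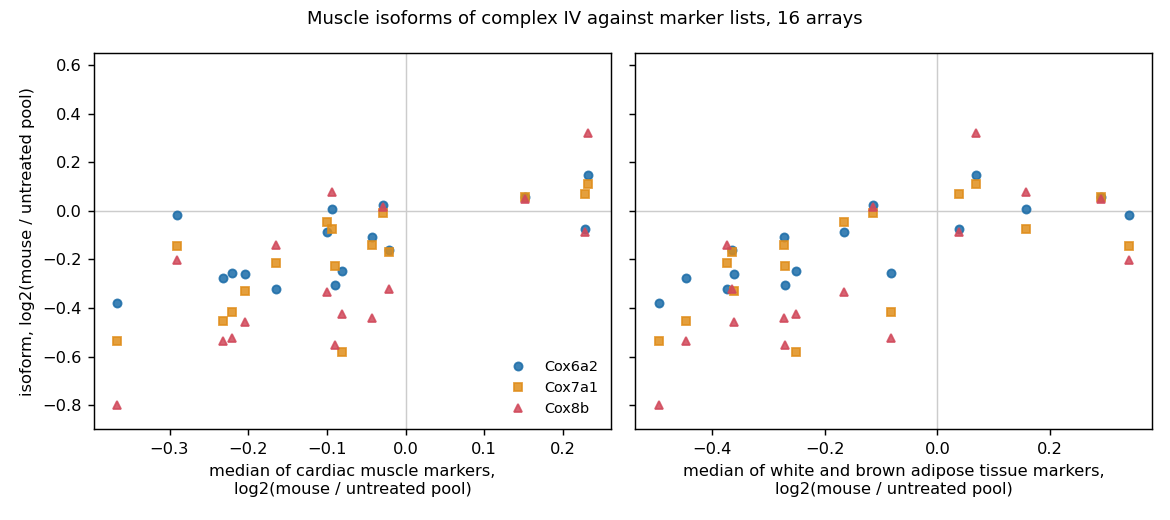
Log2 of mouse over untreated pool of Cox6a2, Cox7a1 and Cox8b (vertical axis) against the median of the heart (left) or fat (right) marker list on the same array (horizontal axis), 1 point per gene and array over 16 arrays. All 3 isoforms are higher on arrays where both medians are higher, with r from 0.67 to 0.75 on the left and from 0.64 to 0.80 on the right.

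The largest shared variation ran across the groups. Over the 69 genes measured on all arrays, the first principal axis held 40.2% of the variance and ran from SECY 3, at a score of -1.66, to Untreated 1, at 0.87. Untreated 3 lay next to SECY 3 at -0.89, so untreated mice stood near both ends. The genes with the largest loadings were Cox7b, a small subunit of complex IV, Uqcrb of complex III, Atp5j of complex V, Ndufa4, counted with complex IV, and Ndufa5 of complex I. Cox7b read 0.40, 0.20, -0.20 and 0.04 in Untreated, 0.24, 0.13, 0.12 and 0.11 in NNK, 0.12, 0.40, -0.55 and 0.33 in SECY and 0.23, 0.07, 0.12 and -0.11 in NNK+SECY. Mouse 3 was the lowest of Untreated and of SECY, and no group lay apart. Uqcrb read -0.46 in SECY 3 and -0.40 in Untreated 3, against 0.25 in SECY 2 and 0.16 in Untreated 1.

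This axis was shared with the rest of the array. Scores on it correlated with those on the first axis of the 20589 other genes at r = 0.95 and rho = 0.91 (permutation p adjusted over 4 relations 4e-05 and 8e-05). The r was 0.90 without SECY 3, 0.87 without SECY 3 and Untreated 1, the 2 arrays farthest from the median, 0.96 on slides 1 to 4 and 0.95 on slides 5 to 8. The first axis of the other genes held 22.8% of their variance.

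**Figure D5:**
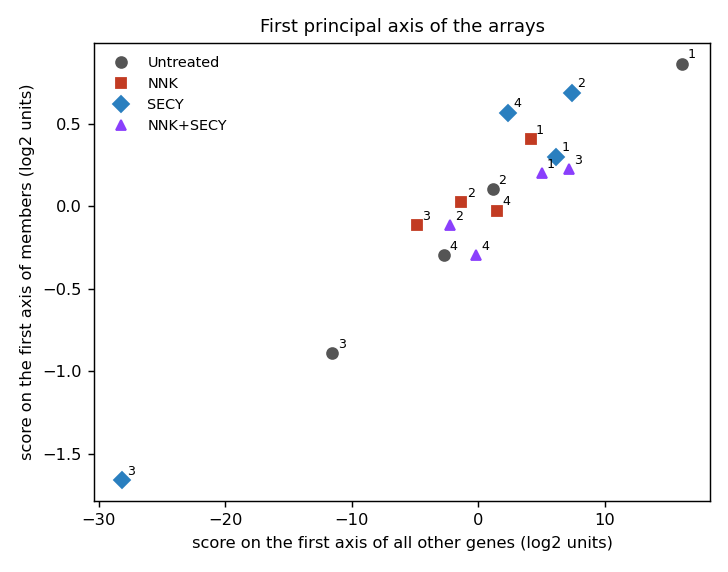
Score of each of the 16 arrays on the first principal axis of 69 respiratory chain genes (vertical axis) against its score on the first axis of 20589 other genes (horizontal axis), both in log2 units and by group; digits are mouse numbers. SECY 3 lies at one end and Untreated 1 at the other, and the 4 groups are mixed between them.

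Of the 79 genes, 50 had 1 probe and 29 had several, and the brightest stood for the gene. Fitted probe by probe, 106 member probes were tested and 1 passed. It is a probe of Ndufc1, a small accessory subunit of complex I with 3 tested probes, chosen for mention after its values were seen. This probe fell in NNK+SECY vs NNK by 0.34 ± 0.07 (limma adjusted p = 0.00997) and in NNK+SECY vs Untreated by 0.28 ± 0.07 (adjusted p = 0.0470). Counted by gene, 1.75% of all genes tested were called in the first comparison and 1.6% in the second. Beside shares of this size, 1 of 106 lies near the background. The share over all probes is not given here. The brightest Ndufc1 probe was at -0.0083 ± 0.076 and -0.0030 ± 0.076 in those comparisons and the other one at -0.065 ± 0.061 and -0.095 ± 0.061, so the 3 probes of the gene did not share the change.

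Genes that work beside the respiratory chain showed little more. Among 13 carriers that feed or serve it, such as cytochrome c, the electron transfer flavoproteins, the ADP/ATP carriers and the voltage-dependent anion channels, 0 passed in any comparison, with medians from 0.009 to 0.051. Among 17 tested regulators of mitochondrial biogenesis, including Nrf1, Gabpa, Tfam and the coactivator Ppargc1a, 0 passed, with medians from -0.018 to 0.046. Of 18 genes of the tricarboxylic acid cycle and pyruvate dehydrogenase 0 passed, and 15 of 18 were above 0 in NNK+SECY vs Untreated, with a median of 0.063. Of 23 tested assembly factors outside the naming rule, 1 passed in 1 comparison, NNK+SECY vs NNK, where 1.75% of all genes tested were called. A count of 1 over 23 genes and 6 comparisons is no pattern in itself. The gene was Timmdc1, an assembly factor of complex I, which fell there by 0.38 ± 0.08 (limma adjusted p = 0.0246), while 16 of the 23 were above 0. Without being called, Timmdc1 was about as low in SECY vs Untreated (-0.34) and in NNK+SECY vs Untreated (-0.35). In NNK vs Untreated it was at 0.036 and in NNK+SECY vs SECY at -0.0092. No gene carried the listed names of the subunits encoded in mitochondrial DNA, but a probe that the array calls COX2 and describes as mitochondrial subunit II of complex IV was above background on all 16 arrays. It was at -0.01 ± 0.10 in NNK vs Untreated, 0.09 ± 0.10 in SECY vs Untreated and -0.02 ± 0.10 in NNK+SECY vs Untreated, with limma adjusted p from 0.921.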

How the data were processed

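Lung RNA of 16 mice was measured on 2-colour arrays that the authors scanned and extracted, using version 8.1.1.1 of Feature Extraction. Each file gives, per the file headers, intensity for spot and background in both colours, and the log10 of the dye-normalized ratio, red over green. The authors' log2 ratios in a deposited table of values are the same numbers rescaled (all within 0.005), and each column has a median of 0. Dyes were not swapped, so a dye effect constant over arrays drops out of the comparisons.

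Mean signals were corrected with normexp (offset 50) and normalized within arrays by loess (limma 3.58.1 in R 4.3.3, files read by data.table, version 1.17.8), with controls and flagged spots at weight 0 and flagged values left out. Of the respiratory chain genes, 9 lacked a value on some array for this reason, and the fit drops such arrays for that gene. Saturated spots were 0 among them. Probe names were updated through RefSeq gene names of GRCm38.p6, which renamed Atp5pb, Dmac2l and Uqcr11. Genes were tested if Cy5 of the brightest probe was well above background in all 4 mice of some group, which left 21248 genes. The limma model (lmFit, eBayes) held a mean per group over 16 arrays, with Benjamini-Hochberg adjustment over all genes tested. It was tested on simulated data. The labels call the mice biological replicates. The number of arrays limits the precision. The genes, lists and tests were chosen with earlier results of these data known. Genes named are those called, or with fewer than 5 called the 6 with the smallest p, besides core subunits and tissue isoforms named whatever their values, and not all are printed. Promoter windows are from RefSeq, GRCm38.p6, and the build of the array's annotation was not used. Ndufa4l2 and Cox7b2 were not analysed here. The values of 1 gene are not reported here.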

Additional observations from a re-analysis of the deposited data

Results flagged for a closer look

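The arrays of the named genes, and the medians of each complex, were examined in 179 groups of 4, and 12 held 1 array that stood apart by Dixon's test at its 95% critical value. Chance alone gives about 1 in 20 groups, so a count of this size is no pattern in itself. SECY 3 stood apart in 3 of them. It read -0.24 in Ndufs1 against 0.058 for the nearest other SECY mouse, 0.51 in Uqcrc1 against -0.030, and -0.30 in the median of the assembly factors and others against 0.0014. In NNK+SECY, mouse 4 read -0.17 in Atp5g2 and -0.24 in Ndufb8, mouse 3 read 0.28 in Uqcrc2 and mouse 1 read -0.098 in Cox8c, which was not above background. In NNK, mouse 1 read -0.0028 in Cox6c and -0.026 in the median of complex II, and mouse 2 read -0.014 in Uqcrc1. Untreated 4 read -0.059 in Atp5k, and SECY 4 read 0.079 in the median of complex I.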

How the results depend on the processing

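The number of respiratory chain genes called stayed at 0 in each of the 6 comparisons under every alternative run, and no named gene passed the limma threshold under any of them. The alternatives were the files' own processed ratio, the deposited table, median centring, no background correction, only the arrays compared, no filter on dim probes, above background in both dyes on all arrays, the mean of all probes, saturated spots left out, array weights, slide as a fixed or random block (correlation 0.12), the replicate block, each array of the groups compared left out, and SECY 3 and Untreated 1 left out together, which was chosen after seeing the data. Median centring moved the median over the genes to -0.0727 in NNK vs Untreated, -0.0602 in SECY vs Untreated and -0.112 in NNK+SECY vs Untreated, beyond the SD of 0.049 between arrays of a group, and the cause was not tested. No other alternative moved a median by that much. Leaving out 1 array gave medians from -0.023 to 0.018 in NNK vs Untreated, -0.019 to 0.019 in SECY vs Untreated, -0.031 to 0.024 in NNK+SECY vs Untreated, -0.021 to 0.033 in NNK+SECY vs NNK, -0.030 to 0.035 in NNK+SECY vs SECY and -0.019 to 0.025 in the interaction, with 0 called each time. Of 240 differences of named genes, 127 kept their sign under every alternative.

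The replicate numbers were not taken as pairs in the main fit, and whether they are pairs was not settled. Only pairs with the same number were examined, with no pairs of different numbers beside them. Of these, 4 of 8 that share a slide identifier and 7 of 16 others had a correlation of deviations over 0.1 (from -0.122 to 0.504 in all). Pairs of replicate 1 all lay between 0.22 and 0.50, and Untreated 3 and SECY 3 were at 0.50. With the replicate block 0 genes were called, and the median was 0.006 in NNK vs Untreated, 0.00035 in SECY vs Untreated, -0.013 in NNK+SECY vs Untreated, -0.0023 in NNK+SECY vs NNK, -0.014 in NNK+SECY vs SECY and -0.0014 in the interaction. The pool's own signal also differed between groups. The median range of Cy3 group means was 0.16 log2 over the 78 genes and 0.18 over all genes tested. This is a range over 4 groups in 1 dye, which is not the same measure as a difference of log ratios between 2 groups. Cy5 and Cy3 moved together in Cox4i1 in NNK vs Untreated (-0.57 and -0.48) but not in Atp5g3 in NNK+SECY vs Untreated (0.051 and -0.15). The part of the pool's signal in the differences reported was not tested.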

Other observations

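Markers of other lung cells were read on the same arrays, and 2 of them were called. Aldh1a1, a retinal dehydrogenase listed with 10 club cell markers, rose in SECY vs Untreated by 0.73 ± 0.09, in NNK+SECY vs Untreated by 0.74 ± 0.08 and in NNK+SECY vs NNK by 0.58 ± 0.08 (limma adjusted p = 0.000894, 0.000249 and 0.00137). Cd3e, a chain of the T cell receptor complex and 1 of 11 tested T and NK cell markers, rose in NNK vs Untreated by 0.44 ± 0.08 (adjusted p = 0.0195) and fell in NNK+SECY vs NNK by 0.36 ± 0.08 (adjusted p = 0.0203). Of the 11, 9 were above 0 in the first (median 0.12) and 2 in the second (median -0.057). Alveolar type 2 markers had medians of -0.063 in NNK vs Untreated, -0.14 in SECY vs Untreated and -0.076 in NNK+SECY vs Untreated over 12 genes. Alveolar macrophage markers had medians of -0.086, -0.17 and -0.17 in the same order over 11 genes. Ciliated cell markers were above 0 in 11 of 11 genes in NNK vs Untreated, with a median of 0.10, where 52.9% of all genes tested were above 0. In NNK+SECY vs Untreated 9 of the 11 were above 0 (median 0.16), and in SECY vs Untreated 7 were (median 0.063). The shares of all genes tested were 50.2% and 48.1% there. Array medians of the ciliated list ran from -0.051 to 0.088 in Untreated and from 0.12 to 0.20 in NNK. They ran from 0.0040 to 0.30 in SECY and from 0.025 to 0.25 in NNK+SECY. Erythroid markers were below 0 in 6 of 6 genes in SECY vs Untreated, with a median of -0.30, where 48.1% of all genes tested were above 0. Their array medians overlapped, from -0.68 to 0.59 in Untreated and from -0.72 to -0.087 in SECY. None of these last 4 lists held a called gene.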
